A study of Homo sapiens with 12 samples.

Results

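The 4 genes of the human TOX family (TOX, TOX2, TOX3 and TOX4) and both NYAP genes (NYAP1 and NYAP2) were followed in nascent RNA, 6 genes of the 60583 in the count tables. TOX3 and NYAP2 were chosen by their log2 fold changes, the largest falls after siINTS11 among coding genes, and their paralogues were taken by symbol for contrast. The siINTS11 values of TOX3 and NYAP2 are therefore the values that chose them: they are given as a description, with no test. All 6 genes were matched by symbol and all 6 passed the count filter in each comparison.

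The assay was TT-seq: RNA that has just taken up 4-thiouridine is fragmented, captured through biotin and sequenced, which reads the RNA being made. The 12 libraries formed 4 groups of 3 replicates: U2OS siCtrl, U2OS siINTS11, U2OS-AsiSI siCtrl and U2OS-AsiSI siINTS11. U2OS is an osteosarcoma line of human origin, and U2OS-AsiSI is a U2OS line that carries AsiSI-ER, a restriction nuclease joined to an oestrogen receptor domain. The siCtrl cells received a control siRNA and the siINTS11 cells an siRNA against INTS11, for 48 h, and U2OS-AsiSI cells of both siRNAs also had OHT for 1 h, so the line and the induced nuclease cannot be told apart. The labels do not say whether U2OS-AsiSI is 1 clone or whether replicates were separate cultures, so p-values measure the spread between these libraries, which may be technical. INTS11 encodes the endonuclease of the Integrator complex, which cuts RNA being made by RNA polymerase II.

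TOX proteins carry a single HMG box, a DNA-bending domain, and TOX itself is best known from T cells, where it supports development and the exhausted state. TOX2 is described in T cells and natural killer cells, TOX3 in neurons and luminal breast epithelium, where variants at its locus are linked to breast cancer risk, and TOX4 in many tissues as a subunit of a protein phosphatase 1 complex. NYAP1 and NYAP2 are neuronal adaptor proteins that, once phosphorylated by Fyn, bind phosphoinositide 3-kinase and link it to the actin-regulating WAVE complex.

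Sequences around RefSeq transcription starts (GRCh38.p14) were drawn for 4 of the 6 genes, namely TOX2, TOX4, NYAP1 and NYAP2. Those of NYAP2 and NYAP1 are shown because the values of these paralogues lie far apart below, and that of TOX2 because it is the TOX gene nearest in span to TOX3. Each runs from 250 bases before to 50 bases after a start, 5′ to 3′ on the gene's strand, and capitals mark CG dinucleotides.
NYAP2 (start 1, chr2:225399460-225399759, plus strand): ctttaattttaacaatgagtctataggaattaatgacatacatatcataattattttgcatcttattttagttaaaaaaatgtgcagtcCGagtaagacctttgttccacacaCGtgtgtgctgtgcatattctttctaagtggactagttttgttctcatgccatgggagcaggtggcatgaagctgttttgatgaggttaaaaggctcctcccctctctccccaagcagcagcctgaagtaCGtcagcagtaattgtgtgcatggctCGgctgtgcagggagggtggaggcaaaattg
NYAP1 (chr7:100483677-100483976, plus strand): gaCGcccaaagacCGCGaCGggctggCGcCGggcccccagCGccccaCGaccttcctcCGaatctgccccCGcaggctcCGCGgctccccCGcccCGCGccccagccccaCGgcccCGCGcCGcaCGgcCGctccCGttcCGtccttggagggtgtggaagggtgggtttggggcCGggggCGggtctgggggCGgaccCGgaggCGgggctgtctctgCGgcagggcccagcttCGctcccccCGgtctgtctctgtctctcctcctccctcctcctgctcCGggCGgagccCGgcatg
TOX2 (start 1, chr20:43915880-43916179, plus strand): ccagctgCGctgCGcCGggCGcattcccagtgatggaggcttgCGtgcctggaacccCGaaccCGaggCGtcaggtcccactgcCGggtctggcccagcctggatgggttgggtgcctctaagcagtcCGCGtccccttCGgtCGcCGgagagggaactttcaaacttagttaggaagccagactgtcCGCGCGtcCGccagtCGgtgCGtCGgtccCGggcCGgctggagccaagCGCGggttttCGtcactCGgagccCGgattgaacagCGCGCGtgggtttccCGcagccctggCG
The NYAP2 window held 4 CG dinucleotides at a GC content of 42.3%, against 34 at 77.3% in NYAP1 and 33 at 68% in TOX2. Over all 35116 RefSeq start windows of this length the median was 14 CG dinucleotides and 58.7% GC, so NYAP2 lay at percentile 24.5 of CG count, NYAP1 at 84.4 and TOX2 at 82.8. A further NYAP2 start held 2 CG dinucleotides, a further TOX2 start 10, and the TOX4 window 19. The letters GGGCGG, searched on both strands, occurred 4 times in the NYAP1 window and in 45% of all windows. They occurred in neither NYAP2 window and in neither TOX2 window. The AsiSI recognition sequence GCGATCGC, which reads the same on both strands, was in none of the 6 windows of these 4 genes, in none of the annotated transcripts of the 6 genes, and in 0.208% of all windows. The introns spliced out of these transcripts, most of each gene's span, were not searched, nor were start windows of TOX and TOX3. These matches describe letters only.

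As a check of the labels, INTS11 itself had 277, 314 and 286 counts in replicates 1 to 3 of U2OS siCtrl, and with siINTS11 the U2OS counts were 260, 216 and 225, a log2 fold change of -0.42 (SE 0.09, edgeR's adjusted p = 6.08e-05). In U2OS-AsiSI it had 284, 351 and 269 counts under siCtrl and 258, 212 and 277 under siINTS11, a log2 fold change of -0.13 (SE 0.08, edgeR's adjusted p = 0.172) that turned to 0.06 when libraries were scaled by their totals alone. An siRNA acts on mature RNA, so nascent INTS11 does not measure the depletion of the protein, and in U2OS-AsiSI these counts leave the label unchecked. Library totals ran from 20704611 to 38065726 counts, lowest in U2OS-AsiSI siINTS11.

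TOX3 (ENSG00000103460, GRCh38 chr16:52436417-52547802, minus strand) spans 111.4 kb, of which annotated exons cover 4.58%, so nearly all of its counted positions are intronic. In U2OS siCtrl it had 2143, 2696 and 2160 counts, or 78.1, 76.2 and 76.2 CPM (counts scaled to a common library total, with trimmed mean of M-values factors over the 12 libraries), a mean of 76.8 ± 1.07 CPM (SD, n = 3). In U2OS siINTS11 it had 283, 308 and 320 counts, at 9.62 ± 0.924 CPM (SD, n = 3). The highest siINTS11 library lay far under the lowest siCtrl library. In U2OS-AsiSI the counts were 1583, 1557 and 1268 under siCtrl, at 49.6 ± 3.76 CPM (SD, n = 3). They were 206, 135 and 191 under siINTS11, at 6.56 ± 0.626 CPM (SD, n = 3). Again the groups did not overlap. The fitted log2 fold change was -3.03 (SE 0.06) in U2OS and -2.91 (SE 0.07) in U2OS-AsiSI, mean levels that were 7.99-fold and 7.56-fold lower.

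NYAP2 (ENSG00000144460, GRCh38 chr2:225399710-225654018, plus strand) spans 254.3 kb, with exons over 2.15% of it. In U2OS siCtrl it had 1083, 1413 and 984 counts, at 38.0 ± 2.89 CPM (SD, n = 3). In U2OS siINTS11 it had 179, 139 and 192 counts, at 5.36 ± 0.793 CPM (SD, n = 3). In U2OS-AsiSI it had 1380, 1262 and 1151 counts under siCtrl, at 42.8 ± 3.7 CPM (SD, n = 3). Each siCtrl library thus held several times the NYAP2 RNA of any siINTS11 library. Under siINTS11 the U2OS-AsiSI counts were 154, 149 and 180, at 6.03 ± 0.601 CPM (SD, n = 3). The fitted log2 fold change was -2.86 (SE 0.08) in U2OS and -2.83 (SE 0.08) in U2OS-AsiSI, and mean levels were 7.09-fold lower in each line.

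Between the lines these falls differed by no more than their error: the fitted difference in log2 fold change, U2OS-AsiSI minus U2OS, was 0.09 (SE 0.11) for TOX3 and -0.01 (SE 0.14) for NYAP2. Both comparisons chose these genes, so the difference is a description too. The 1st percentile of all coding genes tested was a log2 fold change of -1.31 in U2OS-AsiSI and -1.36 in U2OS. The choice of TOX3 and NYAP2 placed both below it. Just outside the choice, in U2OS-AsiSI, came GUCY1A2, a guanylate cyclase subunit, at -2.72 (SE 0.06), GSG1L, an AMPA receptor auxiliary subunit, at -2.50 (SE 0.09), and PDGFRL at -2.40 (SE 0.10). The order covers coding genes that averaged at least 100 counts under siCtrl and whose siRNA groups did not overlap. In U2OS the genes following TOX3 and NYAP2 were GSG1L at -2.44, COL11A1, a fibrillar collagen, at -2.33, and GUCY1A2 at -2.28. The leading 8 genes of each line spanned 67.6 to 344.5 kb, and 6 of the 8 were shared.

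**Figure D1:**
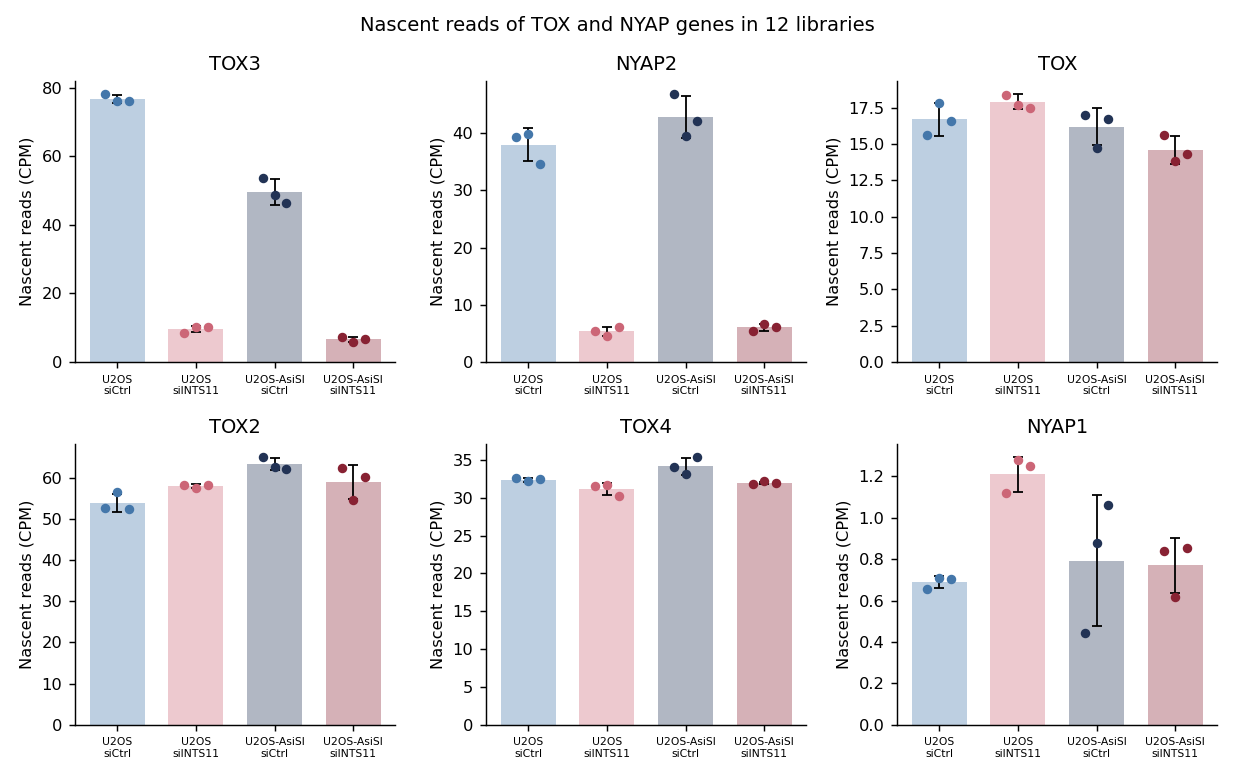
Level of each TOX and NYAP gene in TMM-scaled CPM (vertical axes, each from 0) for the 4 groups on the horizontal axis. Points are the 3 replicates and bars the mean ± SD: TOX3 and NYAP2 drop under siINTS11 in each line (TOX3 from 76.8 to 9.62 CPM in U2OS), while the siCtrl and siINTS11 points of TOX and TOX2 lie close together.

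TOX, TOX2 and TOX4 gave no call with siINTS11 in either line with TMM scaling of all libraries. Calls of TOX and TOX2 depended on the setting: both passed as higher in U2OS with library totals alone, TOX passed as lower in U2OS-AsiSI with the replicate number as a block (-0.15), and the others are given with each gene. In U2OS, 1 of the 4 paralogues passed the threshold (NYAP1), where 66.9% of the 20687 genes tested did so, and in U2OS-AsiSI 0 of 4 passed, where 68% of 20441 genes did. By edgeR and by DESeq2 alike, 0 of the 4 had an unadjusted p under 0.05 in U2OS-AsiSI, and DESeq2 likewise called NYAP1 alone in U2OS. With 4 genes this is a count and not a property of the family.

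TOX (ENSG00000198846, chr8:58805412-59119147, minus strand, 313.7 kb) had 15.6, 17.8 and 16.6 CPM in U2OS siCtrl and 18.4, 17.7 and 17.5 CPM in U2OS siINTS11, ranges that overlapped. Its log2 fold change was 0.07 (SE 0.07, 95% interval -0.07 to 0.20, edgeR's adjusted p = 0.386). In U2OS-AsiSI it had 17.0, 14.7 and 16.7 CPM under siCtrl and 15.6, 13.8 and 14.3 under siINTS11, again overlapping. That log2 fold change was -0.14 (SE 0.07, interval -0.29 to 0.01, edgeR's adjusted p = 0.0921). Both intervals include 0, and neither reaches below -0.29. AC090152.1, which overlaps TOX on the other strand over 108 bases, gave no call in either line. Its values were 0.51 in U2OS (SE 0.32, edgeR's adjusted p = 0.161) and -0.10 in U2OS-AsiSI (SE 0.30, edgeR's adjusted p = 0.777).

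TOX2 (ENSG00000124191, chr20:43914852-44069616, plus strand, 154.8 kb) had 52.8, 56.5 and 52.4 CPM in U2OS siCtrl and 58.2, 57.5 and 58.3 CPM in U2OS siINTS11. The siINTS11 libraries all lay above the siCtrl libraries, yet the log2 fold change was only 0.07 (SE 0.04, interval -0.01 to 0.16, edgeR's adjusted p = 0.134). In U2OS-AsiSI the levels were 65.1, 62.7 and 62.3 CPM under siCtrl and 62.5, 54.6 and 60.3 CPM under siINTS11, a log2 fold change of -0.09 (SE 0.05, interval -0.20 to 0.01, edgeR's adjusted p = 0.106). The U2OS value passed once genes averaging under 50 counts were left out (0.12, edgeR's adjusted p = 0.0172) and without U2OS siCtrl replicate 2 (0.12, edgeR's adjusted p = 0.0297). Without U2OS-AsiSI siINTS11 replicate 1 the U2OS-AsiSI value passed as well, at -0.14 (edgeR's adjusted p = 0.0269), and so did that of TOX, at -0.20 (edgeR's adjusted p = 0.0325). TOX passed at -0.21 without U2OS-AsiSI siCtrl replicate 2 too (edgeR's adjusted p = 0.0239).

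TOX4 (ENSG00000092203, chr14:21476597-21499175, plus strand, 22.6 kb) had 32.7, 32.2 and 32.5 CPM in U2OS siCtrl and 31.6, 31.7 and 30.2 CPM in U2OS siINTS11. In U2OS-AsiSI it had 34.1, 33.2 and 35.4 CPM under siCtrl and 31.9, 32.2 and 32.0 CPM under siINTS11. The siINTS11 libraries were lower in each line without overlap with TMM scaling, by a log2 fold change of -0.09 (SE 0.05) in both, with edgeR's adjusted p = 0.129 in U2OS and 0.132 in U2OS-AsiSI. RAB2B and METTL3 lie on the other strand and overlap TOX4 over 1407 bases. The tables count such reads apart: coding genes wholly overlapped on their own strand were at 0 counts in 641 of 641 cases, and those wholly overlapped by the other strand alone in 18.1% of 960, against 12.1% of 6749 genes with no overlap. RAB2B gave no call in either line, and METTL3, an RNA methyltransferase, was higher with siINTS11 in U2OS at 0.20 (SE 0.06, edgeR's adjusted p = 0.00179). In U2OS-AsiSI METTL3 gave no call, at -0.04 (SE 0.06, edgeR's adjusted p = 0.523). Its response, U2OS-AsiSI minus U2OS, differed between the lines by -0.28 (SE 0.08, edgeR's adjusted p = 0.0332).

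NYAP1 (ENSG00000166924, chr7:100483927-100494802, plus strand, 10.9 kb) was near the count filter. Its U2OS counts were 18, 25 and 20 under siCtrl against 37, 39 and 39 under siINTS11. The groups did not overlap, and the log2 fold change was 0.78 (SE 0.22, interval 0.34 to 1.22, edgeR's adjusted p = 0.00186), so NYAP1 rose in U2OS while NYAP2 was lower. In U2OS-AsiSI it had 13, 28 and 29 counts under siCtrl and 24, 14 and 25 under siINTS11. Those ranges overlapped widely, with a log2 fold change of -0.01 (SE 0.27, interval -0.56 to 0.54, edgeR's adjusted p = 0.982).

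Whether the paralogues responded differently in the lines was tested with an interaction term in a fit of all 12 libraries. None of the 4 paralogues passed, where 3.87% of 21521 genes did (0.762% higher and 3.1% lower). The difference in log2 fold change, U2OS-AsiSI minus U2OS, was -0.82 for NYAP1 (SE 0.35, edgeR's adjusted p = 0.188), -0.24 for TOX (SE 0.10, edgeR's adjusted p = 0.174), -0.20 for TOX2 (SE 0.07, edgeR's adjusted p = 0.0824) and -0.04 for TOX4 (SE 0.07, edgeR's adjusted p = 0.825). By unadjusted p under 0.05, edgeR gave 3 of the 4 (all but TOX4) and DESeq2 gave 1 (TOX2), with 1 gene left without an adjusted p by DESeq2. TOX2 passed with the replicate number as a block, without U2OS siCtrl replicate 2, or without U2OS-AsiSI siINTS11 replicate 1, at -0.21, -0.24 and -0.23. Its adjusted p from edgeR was 0.047, 0.0479 and 0.0427 in turn. The rise of NYAP1 in U2OS is thus not shown to differ from its value in U2OS-AsiSI.

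**Figure D2:**
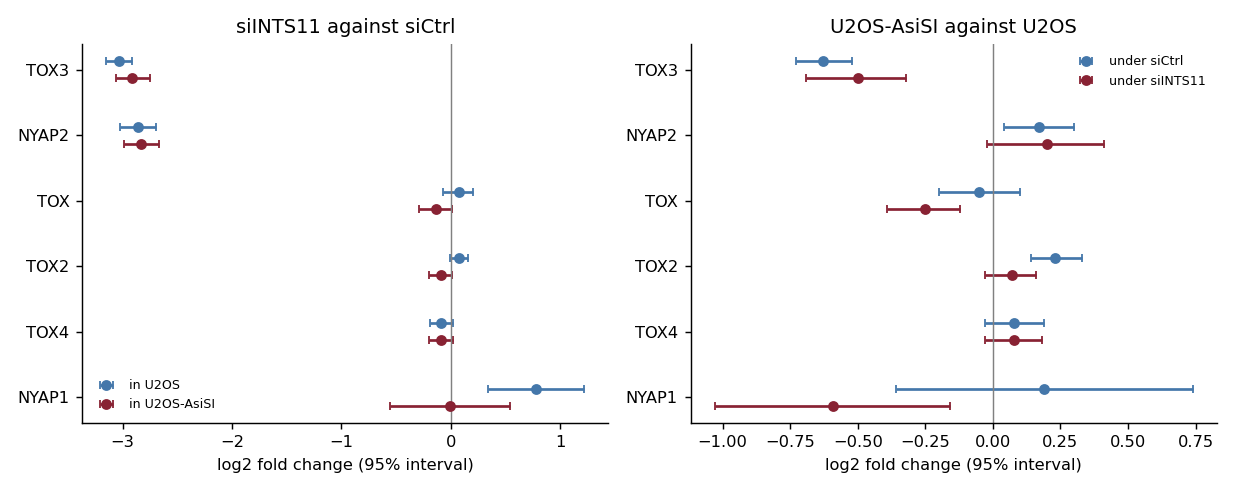
Log2 fold change of the 6 genes (horizontal axis) with siINTS11 in U2OS and in U2OS-AsiSI. Bars are the intervals given in the text, not SE, such as -0.29 to 0.01 for TOX with siINTS11 in U2OS-AsiSI. With siINTS11, TOX3 and NYAP2 stand near -3 in each line, and NYAP1 is at 0.78 in U2OS alone. TOX, TOX2 and TOX4 lie between -0.14 and 0.07 with TMM scaling (signs that partly turn with library totals alone). A further panel shows U2OS-AsiSI against U2OS under each siRNA.

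Scaling bears on the signs of the small changes. With library totals alone the median over all genes moved from 0.03 to 0.22 in U2OS-AsiSI and from 0.02 to 0.22 in U2OS, and TOX, TOX2, TOX4 and NYAP1 in U2OS-AsiSI and TOX4 in U2OS turned from below to above 0. In U2OS, TOX and TOX2 then passed as higher, each at 0.27. A change of scaling shifts all genes of a comparison by nearly the same amount. Values relative to the median of all genes could therefore hardly move, and this is no check of stability. On that scale TOX stood at -0.17 and TOX2 and TOX4 at -0.12 in U2OS-AsiSI under each of the 3 scalings. TOX3 stood at -2.94 and NYAP2 at -2.86 on that scale. Yeast RNA was added per the labels' protocols but yeast counts were not used here, so no shift in overall RNA output was measured.

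The order of the genes per length changed with siINTS11. On the scale of CPM per kb of gene span, U2OS siCtrl ran from TOX4 (1.44 ± 0.0112, SD, n = 3) over TOX3 (0.69 ± 0.00961), TOX2 (0.348 ± 0.0146), NYAP2 (0.15 ± 0.0114) and NYAP1 (0.0634 ± 0.00268) to TOX (0.0531 ± 0.0036), and no neighbours in that order overlapped. In U2OS siINTS11 TOX4 stayed on top at 1.38 and TOX2 came next at 0.375, followed by NYAP1 at 0.112, TOX3 at 0.0863, TOX at 0.0569 and NYAP2 at 0.0211. TOX3 thus moved from rank 2 to rank 4, and NYAP2 from rank 4 to rank 6. Both genes were chosen for falling with siINTS11, so these moves follow from the choice and are a description. In U2OS-AsiSI siCtrl the order of mean levels was that of U2OS siCtrl, but TOX3 at 0.445 and TOX2 at 0.409 overlapped, as did NYAP1 at 0.0729 and TOX at 0.0515. In U2OS-AsiSI siINTS11 the order of means was that of U2OS siINTS11, with NYAP1 at 0.0708 and TOX3 at 0.0589 overlapping. All 6 genes were thinly covered, at no more than 0.0448 reads per base.

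Among coding genes, the U2OS level of TOX3 per kb went from percentile 45.2 to 18.2 and that of NYAP2 from 23.8 to 7.25. TOX2 moved from percentile 33.3 to 34.8 and TOX from 14.7 to 14.5. In U2OS-AsiSI, TOX3 went from percentile 36.7 to 14.8 and NYAP2 from 24.8 to 7.99. The choice of TOX3 and NYAP2 for their falls set the direction of their moves, which are a description. The residual TOX3 and NYAP2 RNA was measured on at least 135 counts in every library, so neither gene was near the counting floor.

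The span of the genes was set beside their changes, because the siINTS11 values of coding genes went down with span in these libraries. Over all genes tested in U2OS-AsiSI 32.6% were called lower and 35.4% higher. In U2OS-AsiSI, the span decile of coding genes from 78.1 to 117 kb, which holds TOX3, had a median log2 fold change of -0.21 (5th to 95th percentile -0.88 to 0.95, 1377 genes), and 59% of them were called lower and 17.8% higher. The decile of longest genes, 202 to 2470 kb, which holds NYAP2 and TOX, had a median of -0.33 (-1.15 to 0.83, 1378 genes) with 65.2% called lower and 17.8% higher. TOX was at -0.14 in that decile of longest genes, where 914 of 1378 genes were lower than it. TOX2, in the decile from 117 to 202 kb with a median of -0.29, 68.3% called lower and 15.5% higher, had 994 of 1377 genes below it. TOX and TOX2 are thus longer than TOX3 and sat above the medians of their deciles. The part of span in the changes of the 6 genes was not tested. TOX4 and NYAP1, both short, lay in deciles with medians of 0.01 and 0.13. In U2OS the medians of the deciles of TOX3, NYAP2 and TOX2 were -0.19, -0.29 and -0.25. With library totals alone these medians were -0.02, -0.14 and -0.10 in U2OS-AsiSI, with 38%, 52.2% and 49.1% called lower, and 0.01, -0.09 and -0.05 in U2OS.

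**Figure D3:**
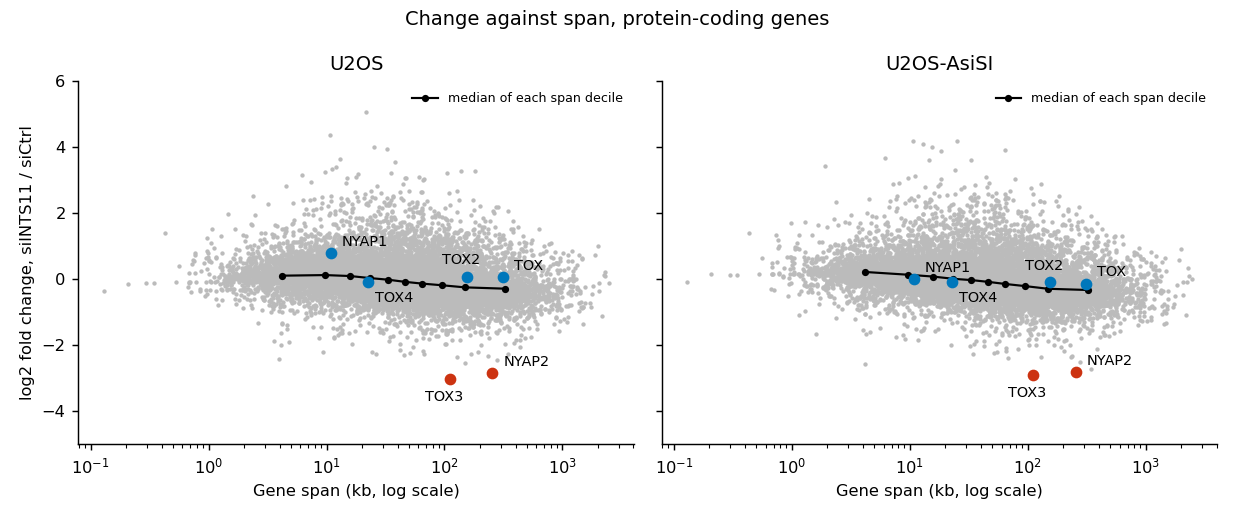
Log2 fold change with siINTS11 (vertical axis) against gene span in kb (log scale) for all coding genes tested (grey) in U2OS and U2OS-AsiSI, with the median of each decile of span as a black line. TOX3 and NYAP2 (red) are the genes chosen for the lowest values, and TOX and TOX2 (blue) lie above the median line near their spans.

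In the absence of siINTS11 the lines differed in 3 of the 6 genes, where 34.9% of 19935 genes were called between U2OS-AsiSI and U2OS under siCtrl. This contrast did not choose the genes, but its libraries entered the siINTS11 comparisons that chose TOX3 and NYAP2. The p-values of TOX3 and NYAP2 here are thus not free of that choice, and of the paralogues TOX2 alone was called. TOX3 was lower in U2OS-AsiSI, at 53.7, 48.8 and 46.3 CPM against 78.1, 76.2 and 76.2 CPM, which is a fitted log2 difference of -0.63 (SE 0.05, edgeR's adjusted p = 2.14e-11) with all 3 libraries below all 3 of U2OS. TOX2 was higher in U2OS-AsiSI by 0.23 (SE 0.05, edgeR's adjusted p = 0.000217), also without overlap. NYAP2 was higher by 0.17 (SE 0.06, edgeR's adjusted p = 0.033), but its ranges overlapped (46.8, 39.5 and 42.1 against 39.4, 39.9 and 34.7 CPM). DESeq2 lost that NYAP2 call (adjusted p = 0.0769), as did leaving out U2OS siCtrl replicate 3, U2OS-AsiSI siCtrl replicate 1 or U2OS-AsiSI siCtrl replicate 3, with values of 0.12, 0.10 and 0.19. TOX, TOX4 and NYAP1 were at -0.05, 0.08 and 0.19, with edgeR's adjusted p = 0.654, 0.256 and 0.621.

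Under siINTS11, 43.6% of 20802 genes differed between the lines (22.2% higher and 21.4% lower in U2OS-AsiSI), and 2 of the 4 paralogues did. TOX was lower in U2OS-AsiSI by a log2 fold change of -0.25 (SE 0.07, edgeR's adjusted p = 0.00169), with no overlap. NYAP1 was lower by -0.59 (SE 0.22, edgeR's adjusted p = 0.0234) on 14 to 39 counts, a call lost with DESeq2 (adjusted p = 0.105) and without U2OS siINTS11 replicate 2, U2OS siINTS11 replicate 3 or U2OS-AsiSI siINTS11 replicate 2, at -0.56, -0.57 and -0.48. TOX2 at 0.07 and TOX4 at 0.08 gave no call, with edgeR's adjusted p = 0.262 and 0.233, though TOX2 passed at 0.12 without U2OS-AsiSI siINTS11 replicate 2 (edgeR's adjusted p = 0.0499). For TOX3 and NYAP2 the line difference under siINTS11 was -0.50 (SE 0.09) and 0.20 (SE 0.11), given as description.

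TOX3 was chosen for the largest fall among coding genes, so no coding neighbour could lie lower. The other genes tested within 1 Mb of TOX3 did not have a value as low either. Of 44 genes within 1 Mb of TOX3, 34 fell below the count filter, each with at most 11 counts, and 10 were tested in at least 1 line. RBL2, a retinoblastoma-like cell cycle repressor 886.2 kb away, was lower at -0.39 in U2OS (SE 0.05, edgeR's adjusted p = 5.83e-09) and at -0.60 in U2OS-AsiSI (SE 0.05, edgeR's adjusted p = 4.16e-11). CHD9, a chromatin remodeller 507.2 kb away, was at -0.15 in U2OS (SE 0.04, edgeR's adjusted p = 0.00171) and -0.24 in U2OS-AsiSI (SE 0.05, edgeR's adjusted p = 3.31e-05). The gene annotated as AC007906.2, 487.9 kb upstream on the strand of TOX3, was instead higher. Its U2OS counts were 257, 353 and 292 under siCtrl against 772, 773 and 711 under siINTS11, a log2 fold change of 1.24 (SE 0.07, edgeR's adjusted p = 1.3e-19), and 0.69 in U2OS-AsiSI (SE 0.07, edgeR's adjusted p = 7.68e-10). AC007346.2, a processed pseudogene tested in U2OS alone, was at -0.82 (SE 0.35, edgeR's adjusted p = 0.0397). AKTIP, AC087564.1, HNRNPA1P48, AC007333.2, AC007342.6 and AC007342.7 gave no call in either line, with values between -0.42 and 0.44.

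Near NYAP2, 12 genes lay within 1 Mb and 4 were tested. CUL3, a ubiquitin ligase scaffold, was at -0.21 in U2OS (SE 0.04, edgeR's adjusted p = 2.54e-05) and -0.22 in U2OS-AsiSI (SE 0.05, edgeR's adjusted p = 8.39e-05). DOCK10, an exchange factor for small GTPases, was at -0.21 (SE 0.04, edgeR's adjusted p = 3.24e-05) and -0.19 (SE 0.05, edgeR's adjusted p = 0.00203). NYAP2 was chosen for its low value, so the distance of both genes from it is a description. AC062015.1, a long non-coding RNA, was at 0.46 in U2OS (SE 0.14, edgeR's adjusted p = 0.00391) and at 0.50 in U2OS-AsiSI (SE 0.16, edgeR's adjusted p = 0.00726), higher in both.

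The remaining tested neighbour, AC016717.2 (chr2:225698514-225703654, plus strand), begins 44.5 kb past the end of NYAP2 in the count tables. RefSeq's NYAP2 model runs from 225397939 to 225703654 on GRCh38 and contains it, so the annotations assign this stretch differently and it is described with no test. Its U2OS counts were 32, 31 and 25 under siCtrl against 8, 2 and 1 under siINTS11. In U2OS-AsiSI it had 35, 24 and 41 counts under siCtrl and 2, 1 and 1 under siINTS11. It was thus lower in all 6 siINTS11 libraries than in any siCtrl library, at counts too few to size the fall. No other gene overlaps the NYAP2 span in the tables, and the gene on the strand of TOX3 that does, AC007490.1, was at 0 counts throughout.

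**Figure D4:**
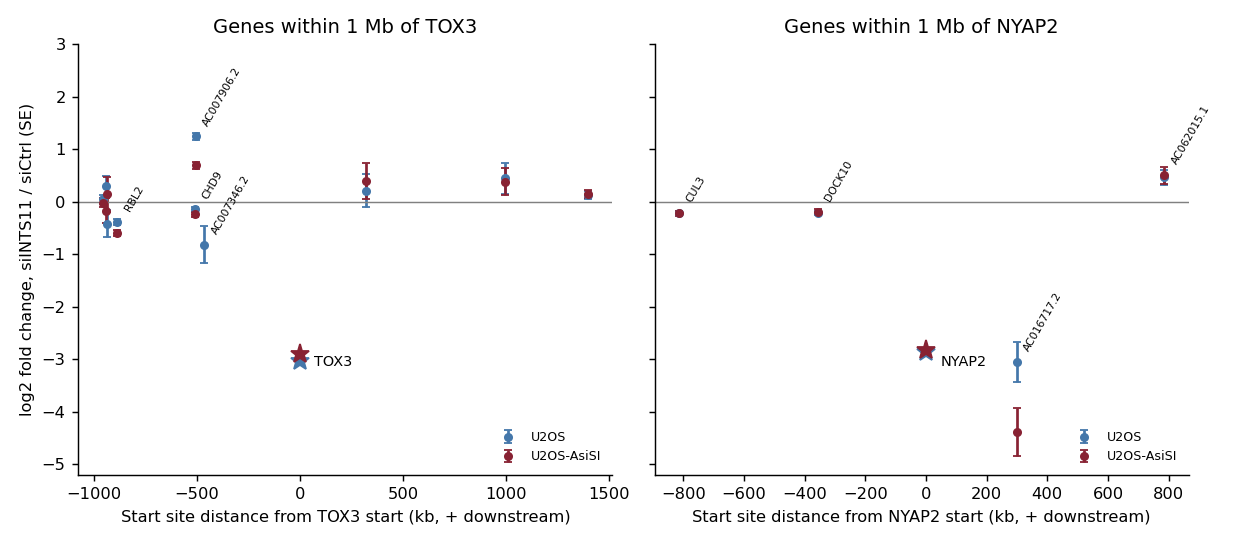
Log2 fold change with siINTS11 (vertical axis, bars of 1 SE) of tested genes within 1 Mb of TOX3 (left) and NYAP2 (right) against the distance between start sites in kb, positive downstream, with TOX3 and NYAP2 as stars and names on genes that passed in a line. AC016717.2 sits as low as NYAP2 but rests on 1 to 8 counts per siINTS11 library, so its fitted value depends on the prior count, and AC007906.2 lies above 0.

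The genes whose pattern over the 12 libraries was nearest to that of TOX3 were sought by the root mean square difference of log2 CPM, each gene centred on its mean, over 13556 genes with a mean of at least 100 counts over the 12 libraries. The nearest 5 were long non-coding or untyped genes: LINC01170 (0.18 log2 units, Pearson r = 0.993 over 12 libraries), AL592402.1 (0.24, r = 0.998), AC025465.1 (0.24, r = 0.993), AC079380.1 (0.26, r = 0.994) and AC012178.1 (0.27, r = 0.987). For NYAP2 they were AC079380.1 (0.35, r = 0.971), AC015631.1 (0.38, r = 0.978), COL11A1 (0.38, r = 0.973), AL592402.1 (0.38, r = 0.964) and TOX3 itself (0.42, r = 0.96). NYAP2 in turn was the 11th nearest to TOX3. All of these values share the same 12 libraries, depths and siRNA split, so they describe likeness and nothing more.

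HMG-box genes outside the TOX family moved in both directions. Of 16 listed and tested, 4 were higher, 7 lower and 5 without a call in U2OS, where 34.5% of all genes were higher and 32.4% lower, and 3, 6 and 7 in U2OS-AsiSI, where the shares were 35.4% and 32.6%. Their median log2 fold change was -0.07 and -0.01, beside 0.02 and 0.03 for all genes. With library totals alone the split turned to 7 higher and 2 lower in U2OS and to 7 higher and 4 lower in U2OS-AsiSI. The list medians were then 0.13 and 0.18, beside 0.22 for all genes in each line. Shares of all genes called in each direction were not taken with that scaling, for this list or those below. BBX was lower at -0.50 in U2OS (SE 0.04, edgeR's adjusted p = 1.34e-13) and -0.54 in U2OS-AsiSI (SE 0.05, edgeR's adjusted p = 4.28e-11). NSD2, a histone methyltransferase, was lower at -0.32 in each line (SE 0.04, edgeR's adjusted p = 3.28e-09 and 1.64e-07). UBTF, a factor of ribosomal RNA transcription, was higher at 0.13 in U2OS (SE 0.05, edgeR's adjusted p = 0.0111) and 0.37 in U2OS-AsiSI (SE 0.05, edgeR's adjusted p = 1.27e-07).

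Of 16 SOX and TCF/LEF genes, developmental factors with the same kind of box, 11 were tested. In U2OS 2 were higher, 6 lower and 3 without a call, with a median of -0.33, and in U2OS-AsiSI 3, 6 and 2 with a median of -0.25, beside the shares of all genes given for the HMG-box list. With library totals alone 3 were higher and 5 lower in each line, with medians of -0.13 and -0.06, beside 0.22 for all genes. SOX5 was lower at -1.22 in U2OS (SE 0.05, edgeR's adjusted p = 2.38e-21) and -1.26 in U2OS-AsiSI (SE 0.05, edgeR's adjusted p = 1.36e-19). SOX6, which like SOX5 acts in cartilage formation, was at -1.01 (SE 0.04, edgeR's adjusted p = 1.51e-24) and -0.99 (SE 0.05, edgeR's adjusted p = 5.82e-18). TCF7L1, a repressor in the Wnt pathway, was at -0.67 (SE 0.04, edgeR's adjusted p = 1.54e-17) and -0.68 (SE 0.05, edgeR's adjusted p = 2.21e-12). These were the 3 smallest adjusted p-values of the list in U2OS-AsiSI. The tested members had a median span of 54.6 kb, against 39.2 kb for all coding genes tested, and the part of span was not tested.

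The phosphatase complex that holds TOX4 did not move as one. PPP1R10, its targeting subunit, was higher at 0.68 in U2OS-AsiSI (SE 0.10, edgeR's adjusted p = 8.72e-07) and at -0.08 in U2OS (SE 0.11, edgeR's adjusted p = 0.515), and it was the only 1 of the 5 partners whose response differed between the lines by the interaction test. WDR82 gave no call, at 0.01 in U2OS and -0.08 in U2OS-AsiSI (edgeR's adjusted p = 0.886 and 0.0957). Of the catalytic subunits, PPP1CA was higher at 0.27 and 0.37, PPP1CC higher at 0.18 and 0.12, and PPP1CB lower at -0.18 and -0.30. The PPP1CC call in U2OS-AsiSI (edgeR's adjusted p = 0.0348) was lost with median-of-ratios size factors (0.10, edgeR's adjusted p = 0.105). With library totals alone PPP1CB turned to 0.02 in U2OS with no call, and WDR82 passed as higher in both lines, at 0.21 in U2OS and 0.11 in U2OS-AsiSI.

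Of the proteins known to bind TOX3, CREB1 was lower at -0.28 in U2OS and -0.26 in U2OS-AsiSI (SE 0.04 and 0.05, edgeR's adjusted p = 2.25e-07 and 4.26e-05), and the acetyltransferase CREBBP was at -0.14 in each line (SE 0.04, edgeR's adjusted p = 0.00293 and 0.00508). With library totals alone, 1 of these genes was called lower in U2OS and none in U2OS-AsiSI. Their median was then -0.01 in each line, beside 0.22 for all genes. CITED1 had 0 counts in all 12 libraries.

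Genes of the pathway that NYAP proteins feed into were mostly lower: of 17 listed, 16 were tested, and 13 were lower, 0 higher and 3 without a call in each line, where 32.4% of all genes were lower in U2OS and 32.6% in U2OS-AsiSI. Their median was -0.26 in U2OS and -0.36 in U2OS-AsiSI. With library totals alone 5 were lower and 2 higher in U2OS and 8 lower and 2 higher in U2OS-AsiSI. The list medians were then -0.06 and -0.17, beside 0.22 for all genes. The median span of the tested members was 117 kb, against 39.2 kb for all coding genes tested. The part of span in these calls was not tested. PIK3CA, a catalytic subunit of phosphoinositide 3-kinase, was at -0.45 in U2OS and -0.51 in U2OS-AsiSI (SE 0.04 and 0.05, edgeR's adjusted p = 3.97e-12 and 3.29e-10). PIK3CB, another, was at -0.38 and -0.48 (SE 0.04 and 0.05, edgeR's adjusted p = 5.65e-11 and 4.03e-10). NCKAP1, of the WAVE complex, was at -0.43 and -0.44 (SE 0.04 and 0.05, edgeR's adjusted p = 1.58e-11 and 2.75e-09). The regulatory subunit gene PIK3R1, to whose product NYAP proteins bind, was at -0.01 and 0.00 with no call, as were PIK3R3 and BRK1. PIK3R2 had 0 counts, and it lies wholly under another gene of its strand in the tables.

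Markers of the cells in which these genes are best known were read in the same libraries. Of 10 osteoblast lineage markers, RUNX2, the lineage's master regulator, stood at 438 ± 8.4 CPM (SD, n = 3) in U2OS siCtrl, while SP7, COL1A2 and IBSP were under 1 CPM in all libraries, and so was BGLAP, which is wholly overlapped by another gene. RUNX2 was lower at -0.84 in U2OS and -1.07 in U2OS-AsiSI, and ALPL and SPP1 were higher at 1.47 and 2.41 and at 1.31 and 2.14. Of 7 T cell markers 6 were under 1 CPM in every library, and the sum of all 7 ran from 1.13 to 1.41 CPM in U2OS siCtrl and from 1.79 to 2.49 CPM with siINTS11, and from 1.22 to 1.57 CPM and 2.38 to 2.83 CPM in U2OS-AsiSI. Summed neuronal markers ran from 574 to 593 CPM in U2OS siCtrl and 772 to 781 CPM in U2OS siINTS11, and from 580 to 595 CPM and 739 to 761 CPM in U2OS-AsiSI, with 6 of 9 tested higher and 1 lower in each line, beside 34.5% of all genes higher in U2OS and 35.4% in U2OS-AsiSI. With median-of-ratios size factors 5 neuronal markers were higher in U2OS and 4 in U2OS-AsiSI. Summed luminal epithelial markers ran from 121 to 127 CPM and 147 to 151 CPM in U2OS and from 132 to 143 CPM and 169 to 184 CPM in U2OS-AsiSI, with 7 and 5 of 7 tested higher and 0 lower. TOX3 and NYAP2 were chosen for falling, so their direction beside that of the neuronal and luminal markers is not a result. The part of these markers in the members' changes was not tested. In such bulk libraries, fewer cells making a gene's RNA and less RNA per cell cannot be told apart.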

How the data were processed

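TT-seq libraries of U2OS and U2OS-AsiSI with siCtrl or siINTS11 were grouped by sample titles, 3 replicates each. The authors deposited whole-number read counts per gene symbol, with coordinates and a length equal to the gene span, introns included, per the file headers. Trimmomatic 0.36, STAR 2.7, featureCounts, deepTools and hg38 are named in the submitters' processing notes. The strand setting and the treatment of duplicate reads are not given in the sources used here. Each deposited table held columns of both lines, matched by name, and 0 columns lacked a sample. Gene identifiers and exons came from GENCODE release 29 (GRCh38), where 75.1% of 55454 shared symbols had the same coordinates. Replicates of a group differed beyond sampling noise (chi-square per degree of freedom 1.93 to 3.28), so 12 libraries were used.

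Counts went into the quasi-likelihood test of edgeR 4.0.16 (R 4.3.3; TMM scaling, filterByExpr, robust glmQLFit, glmQLFTest, two-sided), on the 6 libraries compared, and on all 12 for the interaction of siRNA and line. Benjamini-Hochberg adjustment covered all genes tested, at 0.05. Each SE divides the absolute log2 fold change by the root of its F statistic, and intervals are 95%. CPM were scaled over all 12 libraries, so small CPM differences and fitted folds can deviate. Log2 CPM used a prior count of 2. The tests were tested on simulated data. Same-numbered replicates correlated between -0.28 and 0.35 in their deviations, not all above 0.1, so numbers were not taken as pairs.

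Named were INTS11, the members, the 3 genes per list with the smallest adjusted p in U2OS-AsiSI (all members of the TOX3 and TOX4 partner lists), the next coding genes by fall, tested genes within 1 Mb or overlapping a member, and the 5 nearest patterns. Chosen after their values were seen were PIK3R1, PIK3R3, PIK3R2, BRK1, and the following genes by fall in U2OS. The members and lists were chosen with earlier results of these data known. DESeq2 1.42.0, the replicate block, a mean of at least 50 counts, no filter, scaling by totals alone or by median-of-ratios, and each library left out were the alternatives. Depth was 20704611 to 38065726 counts per library. Without molecular identifiers, reads are not separate molecules. Figures used matplotlib 3.10.9.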

Additional observations from a re-analysis of the deposited data

How the results depend on the processing

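The falls of TOX3 and NYAP2 kept their direction under every alternative run. With library totals alone they were -2.71 and -2.64 in U2OS-AsiSI and -2.83 and -2.66 in U2OS, and over left-out libraries TOX3 ran from -2.98 to -2.84 and from -3.08 to -2.95, and NYAP2 from -2.88 to -2.75 and from -2.96 to -2.75. Library totals alone turned, in U2OS-AsiSI, TOX to 0.05, TOX2 to 0.10, TOX4 to 0.10, NYAP1 to 0.18 and INTS11 to 0.06, in U2OS TOX4 to 0.11, and between lines under siCtrl TOX to 0.01. They also took TOX and TOX2 past the threshold in U2OS at 0.27 each, and TOX2 between lines under siINTS11 at 0.12. With a mean count of at least 50, TOX2 passed in U2OS at 0.12.

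With the replicate block, TOX passed in U2OS-AsiSI at -0.15 and TOX2 in the interaction at -0.21, and the interaction called 1281 genes. Median-of-ratios size factors gave 447 interaction calls and DESeq2 423, and 286 to 946 were called over left-out libraries. The cause was not tested. TOX4 in the interaction turned to 0.01 with no count filter and to 0.03 with a mean count of at least 50. DESeq2 ended the calls of NYAP2 between lines under siCtrl (0.16) and of NYAP1 under siINTS11 (-0.61).

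Over left-out libraries in U2OS-AsiSI, TOX ran from -0.21 to -0.09, TOX2 from -0.14 to -0.04, and NYAP1 from -0.29 to 0.23 (turned to 0.08, 0.23 and 0.11 in 3 of them). In U2OS, TOX2 ran from 0.06 to 0.12. In the interaction, TOX2 ran from -0.24 to -0.13 and TOX4 from -0.05 to 0.02. Between lines under siCtrl, TOX ran from -0.09 to 0.02 (above 0 at 0.01 and 0.02), NYAP1 from -0.04 to 0.48 and NYAP2 from 0.10 to 0.23. Under siINTS11, TOX2 ran from 0.03 to 0.12 and NYAP1 from -0.67 to -0.48.

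In CPM per kb, library totals alone moved TOX to 0.0488, 0.0588 and 0.0509 (U2OS siCtrl, U2OS siINTS11, U2OS-AsiSI siINTS11), TOX2 to 0.32, 0.387, 0.392 and 0.419 and TOX4 to 1.32, 1.43, 1.45 and 1.56 (U2OS siCtrl and siINTS11, then U2OS-AsiSI), and TOX3 to 0.634 and 0.0645 (U2OS siCtrl, U2OS-AsiSI siINTS11). NYAP1 and NYAP2 moved to 0.0582 and 0.138 in U2OS siCtrl. Depth limits NYAP1, at 13 to 39 counts per library.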
